A study of Homo sapiens with 24 samples.

Results

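A set of 10 genes of gluconeogenesis and the fasting response of the liver was followed in HepG2 cells, an established human hepatoma line, under proteasome inhibition. The members were the rows of the count matrix named *PCK1*, *PCK2*, *G6PC*, *FBP1*, *PPARGC1A*, *IGFBP1*, *IRS2*, *TXNIP*, *ARRDC4* and *TAT*. The matrix had a row for 9 of these 10 genes among 18915 in all, and *IRS2* was not analysed here. A filter on low counts kept 8 of them among the 12685 genes that were tested, and *G6PC* did not pass it.

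Cells grew in high-glucose medium with serum and received fresh complete medium with the compounds or vehicle for 10 h, so neither fasting nor a fasting hormone was applied in any group. The 6 groups were DMSO vehicle, 50 nM ISRIB, 20 µM nelfinavir, 50 nM bortezomib, 50 nM bortezomib with 20 µM nelfinavir, and 50 nM bortezomib with 50 nM ISRIB, each with 4 replicate libraries. Bortezomib inhibits the proteasome, nelfinavir is an HIV protease inhibitor that also leads to accumulation of phosphorylated eIF2α, and ISRIB renders cells insensitive to it. RNA was read from the poly(A) end of transcripts, with 5154533 to 6943164 counts per library. All 10 hepatocyte and hepatoma markers examined, including *ALB*, *AFP* and *APOA1*, had counts in each of the 24 libraries. Their summed level was 13266.5 to 14816.1 CPM (counts scaled to a common library size) in DMSO, 10330.9 to 10975.2 in bortezomib, 9556.98 to 11109.1 in bortezomib with ISRIB and 6793.43 to 8712.21 in bortezomib with nelfinavir. A single hepatoma line, in which some enzymes of the hepatocyte are scarce, stands for the liver in all groups.

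Gluconeogenesis makes new glucose from lactate, glycerol and amino acids, and in the fasted liver it is raised by glucagon and glucocorticoids and held down by insulin. Phosphoenolpyruvate carboxykinase, fructose-1,6-bisphosphatase and glucose-6-phosphatase carry out its committed steps, and PGC-1α coactivates their transcription. *IGFBP1* is a classical insulin-repressed gene of the hepatocyte, whereas *TXNIP* and *ARRDC4* are induced by glucose through the MLX and MondoA or ChREBP transcription factors.

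The promoters of the glucose-responsive pair *TXNIP* and *ARRDC4* are shown because these genes moved in opposite directions under bortezomib. Windows of the 250 bases before a RefSeq start site (GRCh38.p14) were matched for 7 members, 9 windows in all. The *TXNIP* window shown is chr1:145996580-145996829 on the minus strand. Capitals mark a carbohydrate response motif, a pair of CACGNG separated by 5 bases, from position -88 to -72. The other *TXNIP* window, chr1:145995745-145995994, held none of the motifs searched. The *ARRDC4* window is chr15:97960453-97960702 on the plus strand, and capitals mark an E-box, CACGTG, from position -210 to -205.
TXNIP: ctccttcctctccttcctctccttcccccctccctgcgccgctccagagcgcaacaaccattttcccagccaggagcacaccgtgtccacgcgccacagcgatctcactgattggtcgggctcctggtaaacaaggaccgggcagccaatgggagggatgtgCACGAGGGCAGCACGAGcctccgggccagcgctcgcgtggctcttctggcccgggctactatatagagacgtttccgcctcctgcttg
ARRDC4: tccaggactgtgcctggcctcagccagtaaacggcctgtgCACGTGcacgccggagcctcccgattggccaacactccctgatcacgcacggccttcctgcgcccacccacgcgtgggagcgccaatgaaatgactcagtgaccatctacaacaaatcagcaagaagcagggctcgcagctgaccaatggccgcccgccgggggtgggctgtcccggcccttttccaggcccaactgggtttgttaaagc
The carbohydrate response motif was present, on either strand, in 0.0456% of the 35116 promoter windows and the E-box in 6.34%. An E-box also lay from -123 to -118 in one of the windows of *PPARGC1A*. The C/EBP-ATF composite motif TGATGNAA, found in 3.14% of windows, was present from -137 to -130 in the *G6PC* window. The *PCK2* and *FBP1* windows held none of the motifs searched, which also included the cyclic AMP response element TGACGTCA (1.65% of windows) and the FOXO or insulin response motif CAAAACA (4.3% of windows). The FOXO or insulin response motif was present, as TGTTTTG on the other strand, from -40 to -34 in the window of *IRS2*. A match is a description of letters in the window, and binding was not measured. Only exact matches within the 250 bases were sought, so a looser or more distant site would be missed. Whether these letters bear on the opposite changes of *TXNIP* and *ARRDC4* was not tested.

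The response to bortezomib was considered first, to ask how proteasome inhibition changed these genes. Bortezomib raised *IGFBP1*, *ARRDC4*, *TAT* and *PCK2*, lowered *PPARGC1A* and *TXNIP*, and left *PCK1* and *FBP1* without a detectable change. Of the 8 members tested, 4 were higher and 2 lower than in DMSO at a Benjamini-Hochberg adjusted p below 0.05 in the quasi-likelihood test of edgeR. Over all genes, 53.4% were called in this comparison, 27.6% as higher and 25.8% as lower. The groups did not overlap in CPM for the same 6 members, and for 50.0% of all genes. The median log2 fold change was 0.43 over the 8 members and 0.00 over all genes. Since the RNA is from bulk cultures, fewer cells of a kind and less RNA per cell cannot be told apart.

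Nelfinavir alone raised *IGFBP1*, *PCK1*, *PCK2* and *TAT*, and lowered none of the 8, against 10.4% of all genes called higher, 8.84% lower and 19.2% in either direction. Groups did not overlap for these 4 members, as for 29.6% of all genes, and the median log2 fold change was 0.82 over the members and 0.01 over all genes. Both comparisons use the same DMSO libraries. With ISRIB alone, 0 of 8 members were called and 0 of 12685 genes (0%), with 0 and 703 of these at an unadjusted p under 0.05, and DESeq2 called 0 members and 19 genes. For 0 members, against 8.01% of all genes, the ISRIB and DMSO libraries did not overlap.

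Bortezomib libraries differed from DMSO in general properties that bear on the scale of these changes. Mitochondrially encoded genes took 33.8% ± 1.20 of counts in bortezomib and 21.5% ± 1.32 in DMSO (SD, n = 4 each), and the share was 36.1% ± 3.13 once ISRIB and 27.2% ± 2.26 once nelfinavir was added to bortezomib. Without those genes, 6 members were called again, 4 higher and 2 lower. CPM values are scaled by TMM factors, and scaling by library totals alone shifted the median of all genes for bortezomib against DMSO by -0.498 on the log2 scale. Under that scaling 1490 genes were called higher and 6266 lower, in place of 3498 and 3275, and 2 members were called higher and 2 lower.

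**Figure D1:**
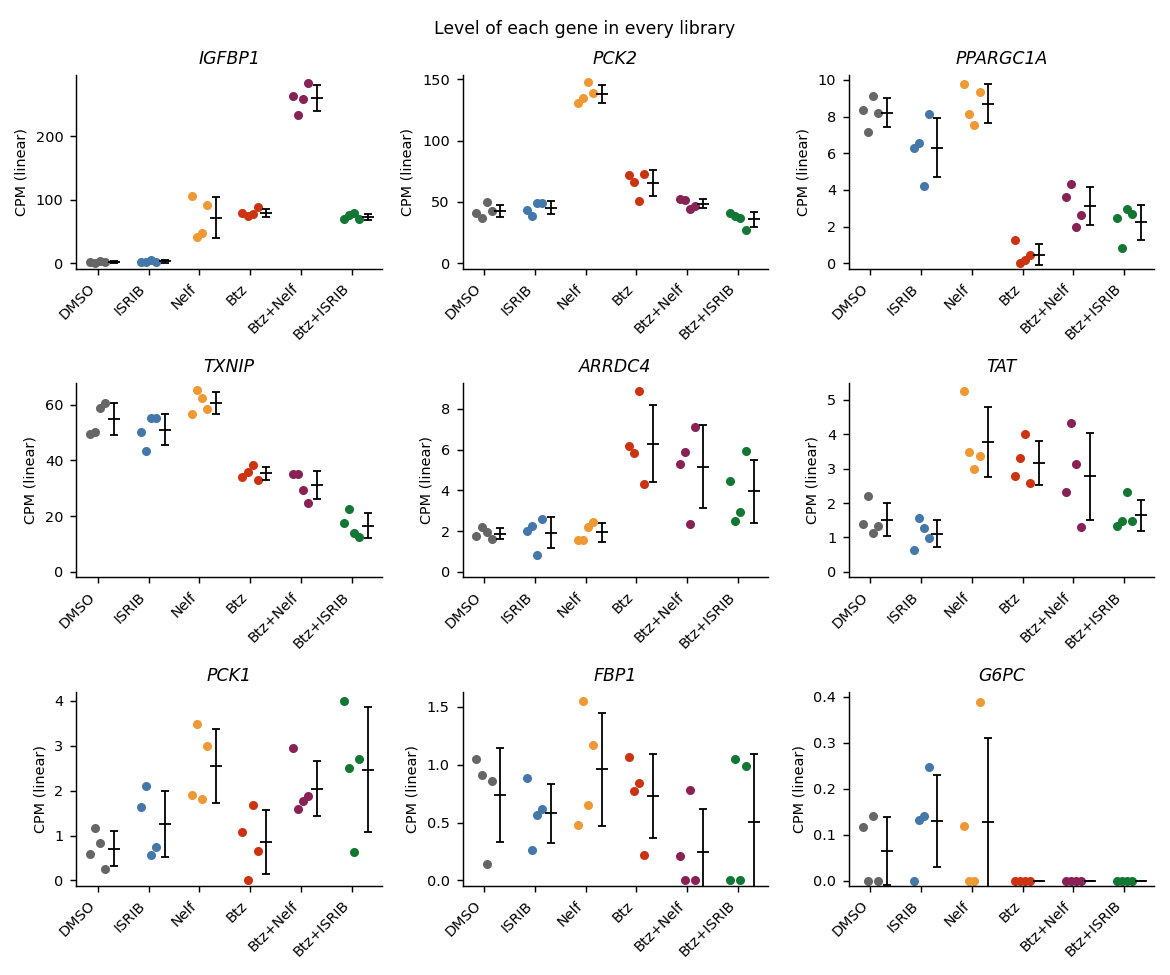
Level of the 9 genes in every library, in CPM after TMM scaling on linear axes that differ between panels. Points are single libraries, 4 per group (Nelf, nelfinavir and Btz, bortezomib), and bars beside them show the mean and SD, cut where they would go below 0. *IGFBP1* stood at 234 to 283 CPM in bortezomib with nelfinavir, above every other library, and *PPARGC1A* at 0 to 1.28 CPM in bortezomib, below the DMSO range of 7.16 to 9.10.

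*PCK2* (ENSG00000100889, chr14:24563262-24579807 in GRCh37, plus strand, 10 exons) encodes the mitochondrial phosphoenolpyruvate carboxykinase. In DMSO its level was 41.4, 37.4, 49.7 and 42.3 CPM, in bortezomib 72.3, 65.9, 50.5 and 72.8, and in nelfinavir 130, 135, 148 and 139. Nelfinavir libraries were above all others, and the bortezomib libraries lay above DMSO in CPM, the lowest at 50.5 against a highest of 49.7. Before scaling, the counts overlapped, at 239 to 340 in bortezomib and 287 to 356 in DMSO. Nelfinavir raised *PCK2* 3.24-fold (log2 1.69 ± 0.120 SE, adjusted p = 4.678e-13), the 45th smallest p of all genes in that comparison. Bortezomib raised it by 0.62 ± 0.122 (adjusted p = 7.16e-05). With library totals this second change was 0.12 (adjusted p = 0.4154) and was not called.

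The nelfinavir increase of *PCK2* was not seen in the presence of bortezomib. Levels were 52.2, 51.3, 44.4 and 46.4 CPM in bortezomib with nelfinavir, partly within the range of bortezomib alone. The log2 fold change against bortezomib was -0.43 ± 0.124 (adjusted p = 0.009006), and the interaction, the effect of nelfinavir with bortezomib minus that without, was -2.12 ± 0.172 (adjusted p = 3.947e-11). The decrease was not called without bortezomib replicate 1 (-0.34, adjusted p = 0.05406) or replicate 4 (-0.34, adjusted p = 0.05722). With ISRIB added to bortezomib the 4 libraries were at 41.4, 38.3, 36.8 and 27.2 CPM, all below bortezomib alone and overlapping DMSO. *PCK2* fell by 0.86 ± 0.128 SE there (adjusted p = 1.251e-05), with an interaction of -0.94 ± 0.176 (adjusted p = 0.0007985), while ISRIB alone gave 0.08.

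*PCK1* (ENSG00000124253, chr20:56136136-56143177, plus strand, 10 exons), the cytosolic isoform and a classical cyclic AMP and glucocorticoid target, was scarce in these cells. Its counts were 5, 9, 6 and 2 in DMSO, 16, 27, 14 and 23 in nelfinavir, and 5, 0, 8 and 3 in bortezomib. The nelfinavir libraries, at 1.82 to 3.48 CPM, lay above DMSO at 0.245 to 1.17. The increase was 1.83 ± 0.563 on the log2 scale (adjusted p = 0.01868). It was not called without DMSO replicate 1 (1.75, adjusted p = 0.06001) or replicate 4 (1.55, 0.081), or without nelfinavir replicate 2 (1.64, 0.06185) or replicate 4 (1.75, 0.05226).

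In bortezomib, *PCK1* was at 0.25 relative to DMSO, with a 95% interval of -1.13 to 1.64, so changes of either sign could be missed at this depth. With library totals the value was -0.23. Adding nelfinavir to bortezomib gave 1.27 (interval -0.02 to 2.55, adjusted p = 0.1322) and adding ISRIB gave 1.52 ± 0.624 (adjusted p = 0.1084), neither called. The second of these passed without bortezomib with ISRIB replicate 3 (1.85, adjusted p = 0.04174), the library with 3 counts beside 18, 12 and 11 in the others.

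The later enzymes of the pathway were near the limit of detection. *FBP1* (ENSG00000165140, chr9:97365415-97402531, minus strand, 7 exons), fructose-1,6-bisphosphatase, had 0 to 12 counts per library. Its group means ran from 0.249 ± 0.371 CPM in bortezomib with nelfinavir to 0.961 ± 0.490 in nelfinavir (SD, n = 4 each), and it passed the test in none of the 8 comparisons. The bortezomib value was -0.04 with an interval of -1.58 to 1.50. *G6PC* (ENSG00000131482, chr17:41052814-41066455, plus strand, 5 exons), the catalytic subunit of glucose-6-phosphatase, had counts of 1, 0, 1 and 0 in DMSO, 0, 1, 1 and 2 in ISRIB and 1, 0, 0 and 3 in nelfinavir. It was at 0 in all 12 libraries that received bortezomib. A single 0 allows up to 3 counts in a library by an upper 95% limit, counting error only. For the sum over the 4 libraries of such a group, the upper end of a 95% interval is 3.69 counts. These bounds differ in the kind of limit used, and not through the summing. Since *G6PC* did not pass the filter, it was not tested for a difference between groups.

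Antisense genes lie over the 3′ ends of some of these transcripts. The library kit keeps the strand of the RNA, but the strand setting of the counting is not given in the sources used here. *NRL* overlaps the last 500 bases of *PCK2* and had 1 to 20 counts per library, against 110 to 1139 for *PCK2*. *PCAT7* overlaps *FBP1* and had 4 to 28 counts, more than *FBP1* itself, so that its values may include reads of both genes. *TAT-AS1* overlaps *TAT* and was not analysed here.

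*PPARGC1A* (ENSG00000109819, chr4:23756664-23905712, minus strand, 13 exons) encodes PGC-1α, the coactivator that links fasting signals to gluconeogenic genes and to mitochondrial biogenesis. It had 8.37, 7.16, 9.10 and 8.21 CPM in DMSO and 1.28, 0, 0.211 and 0.432 in bortezomib, which correspond to 55 to 72 and 0 to 6 counts. All bortezomib libraries were far below all DMSO libraries. The decrease was 16.8-fold (log2 -4.07 ± 0.447, adjusted p = 2.495e-09), the largest decrease among the members in this comparison. It was -4.55 with library totals.

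Co-treatment left *PPARGC1A* at intermediate levels. In bortezomib with nelfinavir it was 3.59, 4.31, 1.96 and 2.63 CPM, above bortezomib alone in every library and below DMSO. In bortezomib with ISRIB it was 2.45, 0.838, 2.95 and 2.72 CPM, with 1 library within the bortezomib range. Relative to bortezomib it rose by 2.67 ± 0.515 with nelfinavir (adjusted p = 0.0001704) and by 2.19 ± 0.548 with ISRIB (adjusted p = 0.00652). The second call was not made in a model of only those 2 groups (2.17, adjusted p = 0.1088). The co-treatments differed from each other by 0.47, which was not called (adjusted p = 0.4092).

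Without bortezomib neither compound moved *PPARGC1A* detectably. The values were 0.08 with nelfinavir (interval -0.48 to 0.65) and -0.37 with ISRIB. Interactions were accordingly 2.58 ± 0.596 for nelfinavir (adjusted p = 0.002005) and 2.57 ± 0.620 for ISRIB (adjusted p = 0.01063).

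**Figure D2:**
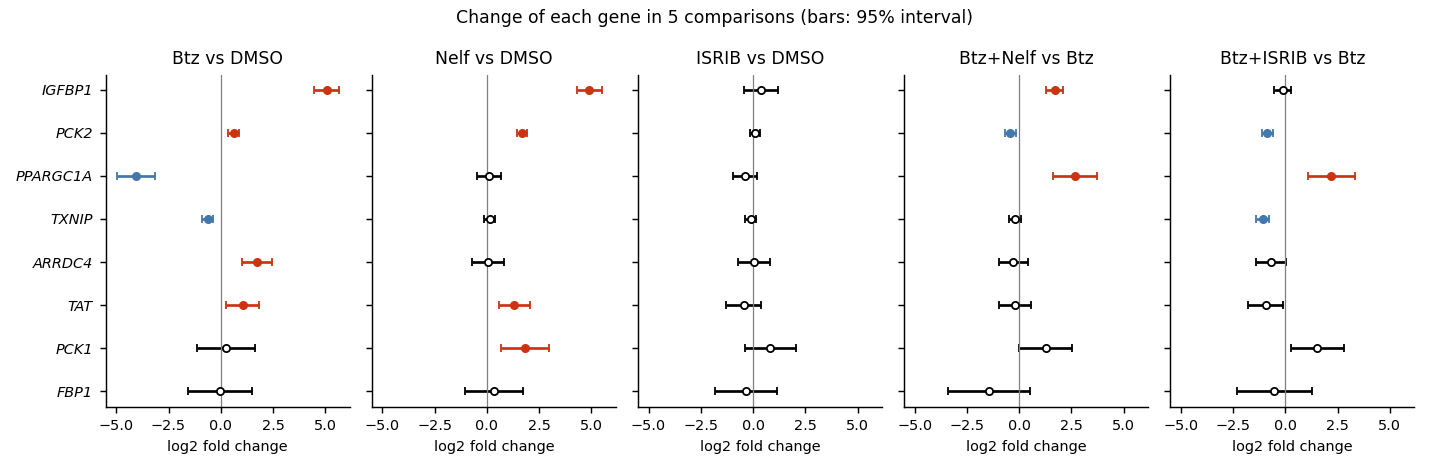
Log2 fold change of the 8 tested genes (x axis) in 5 comparisons, with 95% intervals from the edgeR model. Red and blue points are genes called higher or lower and open points were not called. *PPARGC1A* was lower in bortezomib (-4.07) and higher in both co-treatments relative to bortezomib (2.67 and 2.19), whereas *IGFBP1* was higher with bortezomib (5.06), with nelfinavir (4.91) and on adding nelfinavir to bortezomib (1.70).

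*IGFBP1* (ENSG00000146678, chr7:45927959-45933259, plus strand, 4 exons) encodes a secreted protein that binds insulin-like growth factors and rises in plasma on fasting. It was low in DMSO, at 2.32, 1.17, 3.92 and 2.21 CPM. It reached 107, 41.2, 47.1 and 92.4 CPM in nelfinavir and 79.6, 74.1, 77.5 and 89.0 in bortezomib. Every treated library was at least 10 times the highest DMSO library, and the spread was wider in nelfinavir than in bortezomib. The increase was 33.4-fold with bortezomib (log2 5.06 ± 0.286, adjusted p = 2.784e-16) and 30.0-fold with nelfinavir (4.91 ± 0.284, adjusted p = 3e-15), the 20th smallest p of all genes for nelfinavir.

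The combination raised *IGFBP1* further. Levels were 264, 234, 259 and 283 CPM in bortezomib with nelfinavir, 3.25-fold above bortezomib alone (1.70 ± 0.201, adjusted p = 6.804e-08) with no overlap. The added effect was smaller than that of nelfinavir alone on the log2 scale, with an interaction of -3.21 ± 0.358 (adjusted p = 3.646e-08). On the CPM scale the order was the reverse. Means were 2.41 CPM in DMSO, 71.9 in nelfinavir, 80.0 in bortezomib and 260 in the combination. The rise on adding nelfinavir was thus larger in CPM with bortezomib than without, and the log2 value depends on the low DMSO level. In bortezomib with ISRIB it stayed at 69.2, 75.6, 78.7 and 69.4 CPM, and the change against bortezomib was -0.13 with an interval of -0.54 to 0.29 (adjusted p = 0.7487). Bortezomib with nelfinavir exceeded bortezomib with ISRIB by 1.83 ± 0.202 (adjusted p = 2.59e-08). In order, the combination with nelfinavir stood highest, followed by bortezomib, bortezomib with ISRIB and nelfinavir, whose libraries overlapped, and then by ISRIB and DMSO, which also overlapped.

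*TXNIP* (ENSG00000117289, chr1:145438490-145442635, on the plus strand in GRCh37 and the minus strand in GRCh38.p14, 9 exons) encodes an arrestin-domain protein that binds thioredoxin and limits glucose uptake. It was 49.5, 50.2, 58.8 and 60.7 CPM in DMSO, 34.0, 35.9, 38.4 and 33.1 in bortezomib, and 17.4, 22.6, 14.1 and 12.3 in bortezomib with ISRIB. These groups did not overlap. *TXNIP* fell by 0.63 ± 0.134 SE with bortezomib (adjusted p = 0.0001732), or by 1.13 with library totals.

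ISRIB lowered *TXNIP* further in the presence of bortezomib. The decrease relative to bortezomib was 2.12-fold (log2 -1.08 ± 0.151, adjusted p = 4.366e-06), and the interaction was -0.98 ± 0.198 (adjusted p = 0.002028), with -0.10 for ISRIB alone. In bortezomib with nelfinavir the level was 35.1, 35.2, 29.5 and 24.8 CPM, overlapping bortezomib, and the change was -0.19 with an interval of -0.47 to 0.10. The nelfinavir combination was higher than the ISRIB combination by 0.90 ± 0.152 (adjusted p = 3.746e-05). Nelfinavir alone gave 0.14 (interval -0.12 to 0.40).

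*ARRDC4* (ENSG00000140450, chr15:98503933-98517063, plus strand, 8 exons), a relative of *TXNIP* with the same arrestin fold, went the other way under bortezomib. It had 1.74, 2.21, 1.96 and 1.59 CPM in DMSO and 6.20, 5.82, 8.87 and 4.32 in bortezomib, from 13 to 17 and 20 to 42 counts, with no overlap. The increase was 3.34-fold (log2 1.74 ± 0.361, adjusted p = 0.000125), and 1.25 with library totals (adjusted p = 0.00353). Over the 24 libraries, log2 CPM of *ARRDC4* and *TXNIP* had a Pearson r of -0.57, a description over libraries that share 6 treatments.

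The co-treatments gave lower means of *ARRDC4* without passing the test. The mean was 5.17 ± 2.03 CPM when nelfinavir and 3.96 ± 1.55 CPM when ISRIB accompanied bortezomib (SD, n = 4 libraries per group). The log2 fold changes against bortezomib were -0.29 (adjusted p = 0.5666) and -0.68 (interval -1.40 to 0.04, adjusted p = 0.2168). Nelfinavir and ISRIB alone each gave 0.05, with an interval of -0.73 to 0.83 for nelfinavir.

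*TAT* (ENSG00000198650, chr16:71599563-71610995, minus strand, 12 exons), tyrosine aminotransferase, is the first enzyme of tyrosine breakdown and a glucocorticoid target. It was 1.39, 2.21, 1.12 and 1.35 CPM in DMSO, 5.26, 3.48, 2.98 and 3.38 in nelfinavir, and 2.78, 3.30, 4.01 and 2.59 in bortezomib. Both treated groups lay above DMSO in CPM. The counts behind these levels, 23 to 44 in nelfinavir, 12 to 19 in bortezomib and 8 to 17 in DMSO, overlapped between bortezomib and DMSO before scaling. The increase was 2.47-fold with nelfinavir (log2 1.30 ± 0.368, adjusted p = 0.01004) and 2.07-fold with bortezomib (1.05 ± 0.389, adjusted p = 0.02233). Without nelfinavir replicate 1, the highest library, the first was 1.10 (adjusted p = 0.05958).

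The bortezomib call for *TAT* was close to the threshold. It was not made with library totals (0.56, adjusted p = 0.2161) or with no filter (0.98, 0.0837). It was also not made without bortezomib replicate 2 (0.98, adjusted p = 0.05259) or 3 (0.87, 0.08296), or without DMSO replicate 1 (1.01, 0.05074), 3 (0.94, 0.06458) or 4 (1.00, 0.0531). With ISRIB added, *TAT* was at 1.34, 1.47, 2.32 and 1.48 CPM, below each bortezomib library, but the change of -0.93 was not called (adjusted p = 0.1427). With nelfinavir added it was at 2.33, 4.31, 3.14 and 1.31 CPM, and the change was -0.21 (adjusted p = 0.7268). The nelfinavir interaction of -1.51 ± 0.533 (adjusted p = 0.04189) was not called in a model of only the groups compared (-1.49, adjusted p = 0.05162), with no filter (-1.46, adjusted p = 0.1144) or after omission of 1 library in 11 of the cases, namely bortezomib replicates 2 and 3, bortezomib with nelfinavir replicates 1, 3 and 4, DMSO replicates 1, 3 and 4 and nelfinavir replicates 1, 2 and 4 (-1.56 to -1.23, adjusted p 0.05068 to 0.1059).

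Counted over the co-treatments, adding nelfinavir to bortezomib called 2 members higher (*IGFBP1*, *PPARGC1A*) and 1 lower (*PCK2*), against 15.6% and 13.4% of all genes and 28.9% in either direction. Groups did not overlap for 2 members and 21.5% of genes. Adding ISRIB called 1 member higher (*PPARGC1A*) and 2 lower (*PCK2*, *TXNIP*), against 6.91% and 5.34% of genes and 12.2% in either direction. Groups did not overlap for 3 members, *PCK2*, *TXNIP* and *TAT*, and 12.5% of genes. Between the co-treatments, *PCK2* (0.43 ± 0.129, adjusted p = 0.0134), *IGFBP1* and *TXNIP* were higher with nelfinavir, against 13.2% of genes called higher, 11.3% lower and 24.4% in all, and these 3 did not overlap, as 18.3% of genes did not. The *PCK2* difference was 0.41 and not called in a model of only those 2 groups (adjusted p = 0.08011).

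The interaction tests asked whether an added compound acted differently with bortezomib than without. For nelfinavir 1 member was called higher and 3 lower, against 9.74% and 10.0% of genes and 19.7% in either direction. For ISRIB 1 was called higher and 2 lower, against 2.93% and 1.89% of genes and 4.82% in either direction. *PPARGC1A* and *PCK2* were called for both compounds, and the 2 tests share the DMSO and bortezomib libraries. The median log2 interaction was -1.04 for nelfinavir and -0.50 for ISRIB over the 8 members, and -0.02 and 0.01 over all genes.

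**Figure D3:**
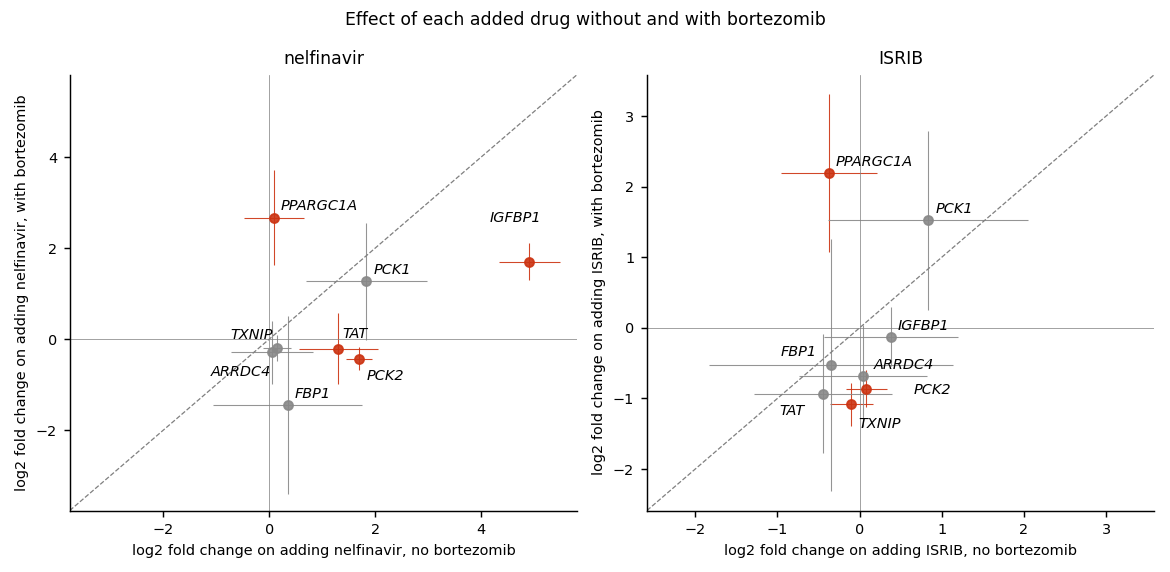
Log2 fold change of each tested gene on adding nelfinavir (left) or ISRIB (right), without bortezomib on the x axis and with bortezomib on the y axis, with 95% intervals. Genes on the dashed line responded alike in both settings, and red marks a called interaction. *PCK2* and *IGFBP1* lay below the line for nelfinavir and *PPARGC1A* above it for both compounds.

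The other genes of these pathways were examined as lists, whose counts are to be read against the shares of all genes called, 27.6% higher and 25.8% lower with bortezomib, 10.4% and 8.84% with nelfinavir, 15.6% and 13.4% on adding nelfinavir to bortezomib and 6.91% and 5.34% on adding ISRIB. Among 13 other tested gluconeogenic enzymes and carriers, bortezomib raised 3 and lowered 6, with a median of -0.38. The aminotransferases *GOT1* (72.6 to 171 CPM, log2 1.24 ± 0.0911) and *GPT2* (84.3 to 144 CPM, 0.77 ± 0.117) rose, as each did with nelfinavir (0.83 ± 0.0901 and 1.65 ± 0.117). The glucose-6-phosphate carrier *SLC37A4* (-1.55 ± 0.132) and the dicarboxylate carrier *SLC25A10* (-1.52 ± 0.197) fell with bortezomib. With nelfinavir, 2 genes of this list rose and 2 fell, the latter *SLC25A11* (-0.41 ± 0.129) and *LDHA* (-0.32 ± 0.0823). Relative to bortezomib, the nelfinavir combination raised *GPT2* by 0.73 ± 0.116 and *GOT1* by 0.47 ± 0.0887 and lowered *G6PC3* (-0.93 ± 0.120) and *SLC25A11* (-0.45 ± 0.154), 2 higher and 3 lower in all. The ISRIB combination raised *LDHA* (0.42 ± 0.0839) and lowered 3, including *SLC25A11* (-0.50 ± 0.156) and *SLC25A13* (-0.33 ± 0.0949).

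Glycolysis and glucose transport also moved in both directions. Of 10 enzymes shared by both pathways, bortezomib lowered 3, among them *ENO3* (-1.19 ± 0.223) and *GPI* (-0.69 ± 0.0895), and raised *PGK1* by 0.28 ± 0.0959, which turned to -0.22 with library totals. Nelfinavir changed none of the 10 detectably. Of 11 glycolysis-specific enzymes and transporters, bortezomib raised 3 and lowered 4. *SLC2A2*, the hepatocyte glucose transporter GLUT2, fell from 163 to 25.4 CPM (-2.68 ± 0.154) and *SLC2A3* fell by 1.71 ± 0.119. *PFKFB3*, a kinase that promotes glycolysis, rose by 1.69 ± 0.375 at a low level, from 1.85 to 6.05 CPM. *SLC2A1* was at 0.43 ± 0.106 but at -0.07 with library totals. Nelfinavir lowered *SLC2A3* by 1.60 ± 0.117 and *SLC2A1* by 0.36 ± 0.106 and raised 0 of the 11. With bortezomib present, nelfinavir raised 3 of these 11, among them *PFKFB3* (1.36 ± 0.328) and *HK2* (1.10 ± 0.170), and lowered 2, *SLC2A2* (-0.74 ± 0.178) and *SLC2A1* (-0.57 ± 0.107). ISRIB with bortezomib present raised *PFKFB2* (0.95 ± 0.221) and *SLC2A3* (0.43 ± 0.120) and lowered *SLC2A2* (-0.52 ± 0.176) and *SLC2A1* (-0.51 ± 0.107).

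Among 18 transcription regulators of the fasting response, bortezomib raised 3 and lowered 5 and nelfinavir raised 5 and lowered 0. *CEBPB* rose with both (from 21.2 CPM to 115 with bortezomib and 121 with nelfinavir), as did the orphan receptor *NR0B2* (2.52 ± 0.0845 and 1.51 ± 0.0831). *FOXO1* (-1.55 ± 0.225) and *CEBPA* (-1.19 ± 0.107) fell with bortezomib. Nelfinavir added to bortezomib raised 4 and lowered 1. There *FOXO1*, the insulin-regulated activator of gluconeogenic genes, rose from 4.99 to 15.4 CPM (1.62 ± 0.230), *FOXO4* rose by 1.41 ± 0.487 and *HNF4A* fell by 0.56 ± 0.115 SE. ISRIB added to bortezomib raised 1 and lowered 4, including *SIRT1* (-0.73 ± 0.193) and *CEBPB* (-0.59 ± 0.176).

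In insulin signalling, 4 of 12 genes rose and 3 fell with bortezomib. *INSR*, the insulin receptor, rose from 106 to 370 CPM (1.80 ± 0.140) and *GRB10*, an adaptor that restrains it, by 1.50 ± 0.129, while *PIK3R1* (-1.25 ± 0.177) and *IRS1* (-0.71 ± 0.145) fell. Nelfinavir raised *GRB10* (1.34 ± 0.127) and *PDPK1* (0.83 ± 0.0999). Adding nelfinavir to bortezomib lowered 3 of the 12, including *IRS1* (-1.41 ± 0.167) and *AKT1* (-0.91 ± 0.175), and raised *IGF1R* (0.55 ± 0.140). Adding ISRIB called 0. Of 5 other fasting-induced genes, bortezomib raised 2 and lowered 3. *LPIN1*, a phosphatidate phosphatase, rose from 18.0 to 71.9 CPM and the fatty acid oxidation gene *ACADM* fell (-1.38 ± 0.148), while *CPT1A* was at 0.32 ± 0.105 but -0.18 with library totals. Nelfinavir added to bortezomib raised 2 of these 5, *CREB3L3* (0.99 ± 0.159) and *CPT1A* (0.33 ± 0.105), and lowered 0. ISRIB added to bortezomib raised 2, *LPIN1* (0.83 ± 0.116) and *CPT1A* (0.33 ± 0.106), or 1 with library totals, and lowered 0. Of 8 glucose-sensing and arrestin-domain genes, bortezomib raised 2, *ARRDC2* (1.07 ± 0.406, from 2.10 to 4.45 CPM) and *MLXIP* (0.76 ± 0.118), and lowered 3, including *ARRDC1* (-1.01 ± 0.292, from 8.58 to 4.26 CPM) and *MLX* (-0.70 ± 0.204). Nelfinavir raised 2 of these 8, *MLXIPL*, which encodes ChREBP (0.65 ± 0.144), and *MLXIP* (0.38 ± 0.117), and lowered *ARRDC3* (-1.04 ± 0.267). ISRIB added to bortezomib raised *MLX* (0.84 ± 0.209) and lowered 0 of the 8, and adding nelfinavir called 0. In tyrosine breakdown downstream of *TAT*, bortezomib raised *HPD* (1.50 ± 0.109) and lowered *FAH* (-0.47 ± 0.106) among 4 genes. Nelfinavir added to bortezomib lowered *HPD* (-0.29 ± 0.107), and ISRIB added called 0 of the 4, or lowered 2 with library totals. The only other insulin-like growth factor binding protein that passed the filter, *IGFBP4*, rose with bortezomib from 0.870 to 2.73 CPM (1.64 ± 0.523) but was not called with library totals (1.14, adjusted p = 0.05531). ISRIB alone called 0 genes in every list. With library totals, the numbers raised and lowered by bortezomib became 2 and 8 for the gluconeogenic enzymes, 0 and 9 for the shared enzymes, 1 and 6 for glycolysis and transport, 2 and 10 for the regulators, 3 and 8 for insulin signalling, 1 and 3 for the fasting-induced genes 0 and 4 for the glucose-sensing and arrestin-domain genes, where *ARRDC2* (0.58, adjusted p = 0.2255) and *MLXIP* (0.27, adjusted p = 0.05712) were not called, and 1 and 3 for tyrosine breakdown.

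**Figure D4:**
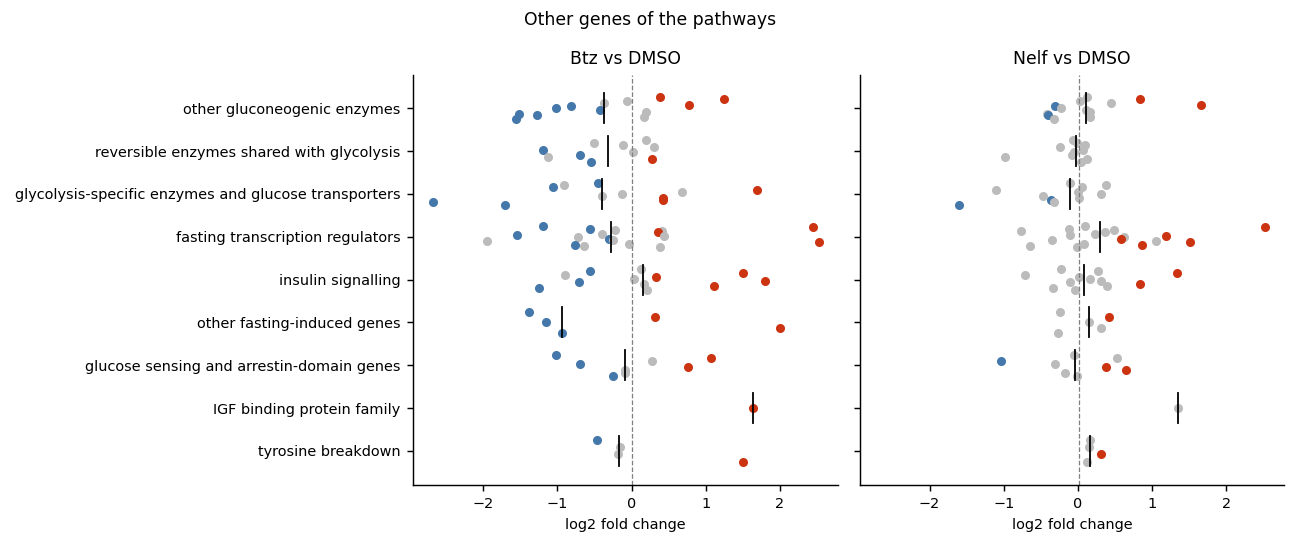
Log2 fold change of the other pathway genes (x axis) by list for bortezomib (left) and nelfinavir (right) against DMSO. Red and blue points were called higher or lower and grey points were not, black bars are list medians and the dashed line is the median of all genes. The largest decrease plotted is that of *SLC2A2* with bortezomib (-2.68) and the largest increases are those of *NR0B2* with bortezomib (2.52) and *CEBPB* with nelfinavir (2.52).

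Finally, the genes whose pattern over the 24 libraries was most like that of each member were listed by Pearson r of log2 CPM, as a description across libraries that share 6 treatments. *IGFBP1* was closest to *TRIB3* and *S100P* (both 0.98), *PPARGC1A* to *EMC9* (0.93) and *RRAGD* (0.92), *TXNIP* to *MTCH2* and *NFU1* (both 0.92), *ARRDC4* to *EWSR1* (0.91) and *UBE2D1* (0.90), and *PCK2* to *SERPINC1* (0.90) and *CHCHD10* (0.89). For *TAT* the values were 0.85 with *ENPP1* and 0.83 with *MOCOS*, for *PCK1* 0.72 with *LEPROTL1* and 0.68 with *TEP1*, and for *FBP1* 0.75 with *COPZ1* and 0.71 with *RP11-337C18.9*. *PCK1* had 0 to 27 and *FBP1* 0 to 12 counts per library. Each r is the highest picked from all tested genes, and how high counting noise alone would reach was not tested. Among pairs of members, the highest values were 0.61 for *IGFBP1* and *TAT* and 0.60 for *IGFBP1* and *ARRDC4* and for *PCK2* and *TAT*, the lowest was -0.66 for *PPARGC1A* and *ARRDC4*, and *PCK1* and *PCK2* had 0.15.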

How the data were processed

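HepG2 RNA was made into 3′ mRNA libraries and sequenced by the authors, who trimmed reads with cutadapt 2.8 and aligned them to hg19 with STAR. The deposited values are unnormalized read counts per gene, one column per library. Reads went through an nf-core pipeline and were counted on Ensembl GRCh37 genes of the protein coding, lincRNA and antisense types. In the sources used here the counting program and its strand setting are not named. The floor for counts of 0 covers counting error only, whereas intervals of fold changes come from the model and include the spread between libraries. Trimming, alignment and gene assignment could not be repeated. The authors describe 4 biological replicates per condition, and the sample titles give a replicate number.

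From these counts, edgeR 4.0.16 with limma 3.58.1 in R 4.3.3 was run as 1 model of all 24 libraries, with a term for each group. Genes were kept at a minimum count of 5 and a minimum total of 25, TMM factors were used, and the quasi-likelihood test was adjusted by Benjamini-Hochberg over 12685 genes and called at 0.05. Log2 CPM used a prior count of 2. Alternatives were DESeq2 1.42.0, its size factors, library totals alone, no filter and the default filter of edgeR, only the groups compared, a replicate block, each library left out in turn and, chosen after seeing the data, removal of the 13 mitochondrially encoded genes. The procedure was tested on simulated data.

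The members and lists were chosen with earlier results of these data known. Named genes were all members, called list genes from among the 2 most changed per direction and comparison, and the 2 genes most like each member. Gene positions are from GENCODE on GRCh37 and promoters from RefSeq on GRCh38.p14, searched with Python 3.11.15. A search with BLAST 2.17.0 of the last 500 bases of each member's transcript found 0 near copies of at least 80 bases and 97% identity. No 2 libraries of a group agreed within sampling noise (lowest chi-square per degree of freedom 2.14).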

Additional observations from a re-analysis of the deposited data

Results flagged for a closer look

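One library stood apart from the other 3 of its group. *TAT* was at 2.32 CPM in bortezomib with ISRIB replicate 3 and at 1.34 to 1.48 CPM in the others, the 1 such case in 51 sets of a gene and a group that were examined. The counts were 11 in that library and 6, 7 and 6 in the others. The rule was a gap above the 95% critical value of Dixon's test, which chance alone passes in about 5% of sets.

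In 7 cases the effect of an added compound differed with and without bortezomib by the interaction test of edgeR. For nelfinavir these were *PCK2* (log2 -2.12), *IGFBP1* (-3.21), *PPARGC1A* (2.58) and *TAT* (-1.51). In CPM, the rise of *IGFBP1* on adding nelfinavir was larger with bortezomib than without. For ISRIB they were *PCK2* (-0.94), *TXNIP* (-0.98) and *PPARGC1A* (2.57). The summed level of the hepatocyte markers was lower in bortezomib with nelfinavir, at 6793.43 to 8712.21 CPM, than in bortezomib alone, at 10330.9 to 10975.2 CPM. Of the 10 markers, 8 were called lower there, against 13.4% of all genes. Bortezomib against DMSO lowered 6 of the 10, against 25.8% of all genes. ISRIB added to bortezomib raised 3 and lowered 2, against 6.91% and 5.34% of all genes. The part of the marker level in these differences was not tested. Of 9 markers of other cell types, 5 had a row, and *COL1A1* was at 0 in 20 libraries, *COL3A1* in 19 and *KRT7* in 23. Their sum was 30.0 to 43.6 CPM in DMSO and 76.6 to 109 CPM in bortezomib and consisted mostly of *ACTA2*, which rose with bortezomib (1.47 ± 0.134), and its part was not tested.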

How the results depend on the processing

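Under the alternatives, 1110 of 1141 values of a member kept their side of the threshold. Another 30 kept the direction and lost the call, and 1 gained a call. Direction reversed for 0 of the values called in either fit. Values called in neither fit count among the 1110 even where their sign changed. *PCK1* with bortezomib, for example, was at 0.25 with TMM factors and at -0.23 with library totals. The values with a changed call concern *PCK1*, *PCK2*, *PPARGC1A* and *TAT* and stand beside their results. Members called ran, with 1 library left out, from 5 to 6 for bortezomib against DMSO, 3 to 4 for nelfinavir, 0 to 0 for ISRIB, 2 to 3 and 3 to 4 for nelfinavir and ISRIB added to bortezomib, 3 to 3 between the co-treatments, and 3 to 4 and 3 to 3 for the interactions of nelfinavir and ISRIB. Genes called ran, in the same order, from 6296 to 6493, 1930 to 2258, 0 to 0, 2931 to 3696, 1271 to 1522, 2598 to 3235, 2111 to 2560 and 438 to 698. With only the groups compared, genes called were 3873 in place of 2441 for nelfinavir, 2246 in place of 3669 and 867 in place of 1553 for nelfinavir and ISRIB added to bortezomib, 1740 in place of 3098 between the co-treatments, and 80 in place of 0 for ISRIB. ISRIB against DMSO gave 19 genes with DESeq2 and 39 with no filter. The cause was not tested. Counts of 0 to 44 per library limit *PCK1*, *FBP1*, *G6PC*, *ARRDC4* and *TAT*. *PPARGC1A* had 0 to 6 counts per library in bortezomib, 9 in sum, which limits every change measured against that group. Its log2 fold change for bortezomib against DMSO ran from -5.23 to -3.69 over the alternatives.

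With a replicate block the members called were 6 for bortezomib, 4 for nelfinavir, 0 for ISRIB, 3 for each co-treatment against bortezomib, 3 between the co-treatments, and 4 and 3 for the interactions, and it changed no call of a member. Genes called were 6834 with the block and 6773 without it for bortezomib. Deviations from the group means correlated above 0.1 in 10 of 60 pairs that share a number (-0.0846 to 0.215) and in 7 of 180 other pairs, and 14 of 24 libraries were closest to one of their own number, a hint from the data and not the design, so the libraries were treated as unpaired.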
